A study of Oncorhynchus kisutch with 82 samples.

Results

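Gill RNA of 15 hatchery coho salmon (Oncorhynchus kisutch), caught in rivers at the smolt stage, was compared between 2 hatchery groups out of 82 fish in the series. The first group was 7 hatchery smolts of 2008 from the capture area chilliwack, whose stock label is Chilliwack_R. The second was 8 hatchery smolts of 2009 from the capture area chehalis, whose stock label is Fraser. Members were chosen by season, origin, capture area and year as the labels give them. A further Chilliwack hatchery fish, number 36, was left out for its fork length of 5 cm. Origin and life stage were the same in both groups, whereas river, stock label and year changed together and cannot be told apart. Sex was not recorded for the Chilliwack fish. Of the 8 Chehalis fish 2 were labelled female, and the other 6 were counted as males. No treatment is recorded for either group, and the labels do not say how the hatchery fish were reared.

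Each array carried amplified gill RNA of 1 fish in one dye and a pool of gill RNA of all fish in the other. The values are the authors' log ratios of these channels, whose base and direction the labels do not give. They were taken as log2, so a difference of 1 would be a 2-fold difference. "Higher" below means a higher log ratio. The arrays carry probes named by column and row, such as C001R039, and the files pair none of them with a gene. Probes are therefore named by these IDs, markers of gill cell types could not be looked up, and each probe stands for an unnamed transcript.

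The gill is the organ with which a salmon exchanges salt, water, acid and gas with its surroundings. During smoltification, the change by which a river juvenile becomes ready for the sea, its ionocytes switch from taking up salt to secreting it, with a change of sodium pump subunits and a rise of the chloride channel and cotransporter of secreting cells. Cortisol, growth hormone and thyroid hormone drive this change and prolactin opposes it. Smolts also become slimmer and more silvery as they develop. A whole-gill RNA sample mixes ionocytes, pavement cells, mucous cells, blood and cartilage, and fewer cells of a type cannot be told apart from less RNA per cell.

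The fish of the 2 groups differed in build. Fork length of the Chilliwack fish ran from 12.5 to 14.1 cm with a median of 13.2 cm, and that of the Chehalis fish from 11.4 to 12.5 cm with a median of 11.6 cm. The means differed by 1.45 cm, with an adjusted p of 0.000699 in a two-sided exact permutation test over the 6435 splits of the 15 fish. The groups met at 12.5 cm only. Condition factor, 100 times the mass in grams over the cube of the length in cm, was 0.827 to 0.948 in the Chilliwack fish with a median of 0.864. In the Chehalis fish it was 0.967 to 1.12 with a median of 1.08. Every Chilliwack fish was thus slimmer for its length than every Chehalis fish, by 0.18 on average (exact permutation test, adjusted p = 0.000699). Mass ran from 16.16 to 24.19 g against 15.48 to 20.96 g and overlapped, with a mean 3.13 g higher in the Chilliwack fish (exact permutation test, adjusted p = 0.027). The p-values were adjusted over these 3 measures.

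**Figure D1:**
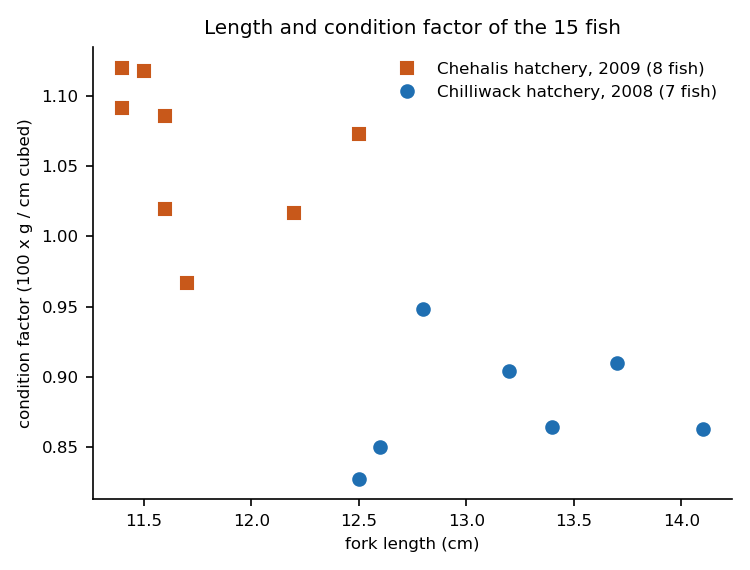
Fork length (cm) against condition factor (100 x mass in g over length in cm cubed), 1 point per fish. The 7 Chilliwack fish (circles) all lie below the 8 Chehalis fish (squares) in condition factor, with 0.948 the highest Chilliwack and 0.967 the lowest Chehalis value.

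The arrays differed between the groups before any probe was compared. The SD of the log ratios over all probes of an array ran from 0.833 to 1.64 in the Chilliwack fish, with a median of 1.39. In the Chehalis fish it ran from 0.687 to 0.920 with a median of 0.733. The mean SD was 0.55 larger in the Chilliwack fish (two-sided exact permutation test, adjusted p = 0.0014 over 3 array measures). Chilliwack fish 6, with an SD of 0.833, was the one Chilliwack array within the Chehalis range. Fish 3, 4, 5, 7 and 8 had arrays with an SD over 1.3, here called wide arrays, and fish 1 lay between at 1.19. None of the Chehalis arrays was wide.

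The wider spread lay on the side of high log ratios. The 99th percentile of the log ratios was 4.40 on the array of fish 1, 5.81 on that of fish 4 and 3.59 on that of fish 7. It was 1.71 on the array of fish 6 and between 1.23 and 1.54 on the Chehalis arrays. The 1st percentile did not follow the same order: it was -2.10 for fish 1 and -2.82 for fish 6, inside or above the Chehalis range of -3.72 to -2.46. High log ratios were thus the feature shared by fish 1 and the 5 wide arrays.

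The control spots GE_BrightCorner and DarkCorner, which carry no salmon probe, moved with the same fish. Of the control spots, only these had a value on every array of both groups. The log ratio of the GE_BrightCorner control spots was -0.65 in fish 6 and -0.82 to -0.28 in the 8 Chehalis fish. It was 3.53 in fish 1, 1.63 in fish 3, 4.95 in fish 4, 3.25 in fish 5, 1.48 in fish 7 and 1.78 in fish 8. All 6 of these lay above every Chehalis fish, and their order did not follow the SD exactly. The DarkCorner control spots were at -0.60 in fish 6, between 0.16 and 2.03 in the other 6 Chilliwack fish and between -0.81 and -0.18 in the Chehalis fish. A further control spot, E1A_r60_3, did not follow. It was 0.30 in fish 6, 0.09 in fish 1, 0.05 in fish 3, -0.17 in fish 8 and 1.57 in fish 5. In the Chehalis fish it ran from 0.03 to 0.72, and fish 4 and 7 had no value. The part of what sets these control spots in the probe results below was not tested.

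**Figure D2:**
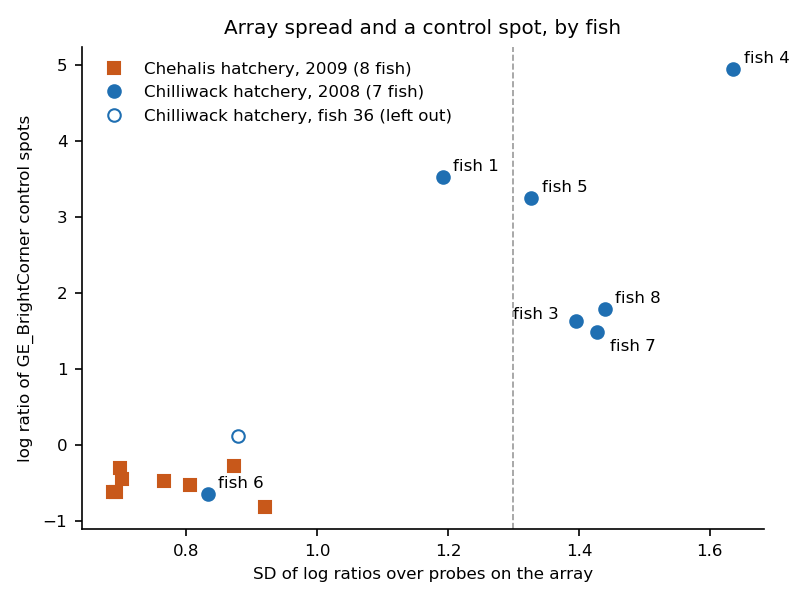
SD of the log ratios over the probes of an array (x axis) against the log ratio of the GE_BrightCorner control spots on it (y axis), 1 point per fish, with a dashed line at 1.3. Fish 6 sits among the 8 Chehalis fish (squares), and the other 6 Chilliwack fish (filled circles) lie apart at 1.48 or more, while fish 36 (open circle) is at 0.11.

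Likeness between arrays followed the same division. Pearson r over the probes shared by a pair of arrays is given here as a description, since all probes of an array share its RNA, dye labelling and hybridisation. The 5 wide Chilliwack arrays correlated with one another at 0.646 to 0.884. They correlated with the Chehalis arrays at -0.041 to 0.438. The array of fish 1 correlated with the wide arrays at 0.508 to 0.841 and with the Chehalis arrays at 0.0743 to 0.247, so it lay with the wide arrays although its own SD was under the limit. Fish 6 correlated with the Chehalis arrays at 0.491 to 0.588 and with the other Chilliwack hatchery fish at 0.219 to 0.357. Fish 6 was therefore more like every Chehalis fish than like any other of the 7. The 5 cm fish 36, an array of narrow spread from the same group, correlated with fish 6 at 0.513 and with the wide arrays at 0.307 to 0.551, with a median of 0.437. With the Chehalis arrays it correlated at 0.257 to 0.583, with a median of 0.498. Fish 6 correlated with the wild Chilliwack smolts at 0.240 to 0.529, and the median of 0.487 lay close to its median of 0.511 with the Chehalis fish.

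The main comparison tested 16270 probes, of which 6517 differed at an adjusted p below 0.05, or 40.1% (limma with Benjamini-Hochberg adjustment over all probes tested). In the Chilliwack fish 3574 probes were higher, 22% of those tested, and 2943 were lower, 18.1%. The sides differed in size. A difference of at least 1 was found for 2958 of the higher and 1339 of the lower probes. One of at least 2 was found for 1024 of the higher and 59 of the lower. The differences ran from -2.85 to 6.55, and the median size among called probes was 1.19 with a median SE of 0.309. Across all probes tested the median difference was 0.00.

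The log ratio of a probe varied more between fish in the Chilliwack group. Pearson r between arrays was not lower there. Its median was 0.660 within the Chilliwack group (0.219 to 0.884) and 0.635 within the Chehalis group (0.296 to 0.785). Over the 10651 probes with a value on all 15 arrays, the median SD between fish was 0.686 in the Chilliwack group and 0.362 in the Chehalis group, and it was larger in the Chilliwack group for 86.8% of them. Without fish 6 the Chilliwack median was 0.628. Complete separation of the 7 from the 8 fish was found for 743 of these probes, or 6.98%, with the Chilliwack fish above in 385 and below in 358. Most called probes thus overlapped in at least 1 fish.

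Among all called probes the overlapping fish was most often fish 6, by a wide margin on the higher side and a small one on the lower. Among the 2399 probes called higher with a value on all 15 arrays, fish 6 lay above all 8 Chehalis fish in 27.2%, fish 1 in 73.3% and the 5 wide arrays in 86.8% to 94.0%. Over all 10651 probes fish 6 lay above the Chehalis range in 16.5%, fish 1 in 25.6% and the wide arrays in 25.1% to 35.9%. Among the 2442 called lower, fish 6 lay below all Chehalis fish in 42.7%, fish 1 in 48.1% and the wide arrays in 77.4% to 92.3%. Over all 10651 probes the share below was 20.4% for fish 6, 21.0% for fish 1 and 27.8% to 39.9% for the wide arrays. Among the 1162 called lower by at least 1 the order turned, with fish 1 below in 49.2% and fish 6 in 52.5%. These shares are a description, since the same fish made the calls.

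Leaving out 1 fish at a time gave between 5630 and 8068 calls, and the highest number came without fish 6, with 4324 higher and 3744 lower. With a covariate in the fit the calls fell to 3504 for array position, 1667 for fork length and 1119 for condition factor, both body measures moving with the group. Array position moved with it in part. Position 4 held Chilliwack fish 1, 3, 5 and 7 and Chehalis fish 1620, and position 2 only Chehalis fish 1616 and 1624. The repeat without the 5 wide arrays compared fish 1 and fish 6 with the 8 Chehalis fish. It called 80 of 20487 probes, or 0.390%, of which 38 were higher (0.185%) and 42 lower (0.205%). At an unadjusted p below 0.05 there were 3566 in limma. Of the 80, 72 were also called in the main comparison in the same direction, but both share fish 1, fish 6 and all Chehalis fish. Those 2 fish were unalike: fish 1 alone against the 8 gave 3021 calls, 2308 of them higher, and fish 6 alone gave 174, 87 in each direction. In these fits the lone fish is assumed to vary like the Chehalis fish. The repeat itself takes most of its spread from the 8 Chehalis fish. Their median SD between fish was 0.362, against 0.686 in the Chilliwack group, so p-values of the repeat may be too small.

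**Figure D3:**
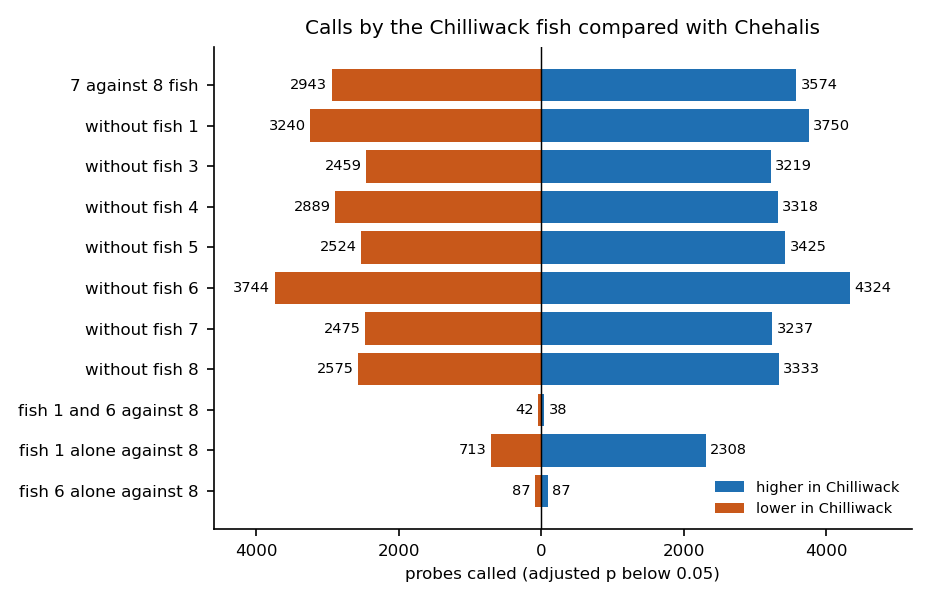
Number of probes called at an adjusted p below 0.05, to the right when higher and to the left when lower in Chilliwack than in the 8 Chehalis fish, for the Chilliwack fish named on the y axis. All 7 fish gave 3574 higher and 2943 lower calls, fish 1 and 6 together gave 38 and 42, and fish 1 alone gave 2308 and 713.

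The 8 probes with the largest positive differences among those measured in all 15 fish were C001R039, C129R097, C042R066, C064R140, C135R052, C038R057, C209R166 and C234R078. Their log ratios were high in 6 Chilliwack fish and low in fish 6. C001R039 had its lowest value of -0.36 in fish 6, a median of 4.20 and a highest value of 5.90 in fish 4. In the Chehalis fish it ran from -4.30 to -0.03 with a median of -1.72. Fish 6 fell inside the Chehalis range and the other 6 Chilliwack fish, at 2.91 or more, lay above it. The difference was 5.73 ± 0.752 (SE; limma, adjusted p = 4.83e-05).

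C064R140 was -0.19 in fish 6 and between 4.17 and 6.67 in the other Chilliwack fish, with a group median of 4.61. The Chehalis fish ran from -1.28 to -0.27 with a median of -0.68. The groups did not overlap, by a narrow margin at fish 6, and the mean difference was 5.32 ± 0.702 (SE; limma, adjusted p = 5.00e-05). C129R097 had -1.74 in fish 6, inside the tight Chehalis range of -2.26 to -1.54, and 7.08 in fish 1. Its mean difference of 5.69 ± 0.952 (SE; limma, adjusted p = 0.000291) therefore came from the other 6 fish. C042R066 reached 7.82 in fish 1 and 7.17 in fish 4 and was -0.58 in fish 6, with the Chehalis fish between -1.15 and 0.10. Across these 8 probes fish 6 alone differed from the Chehalis mean by -0.40 for C234R078 up to 1.54 for C001R039.

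The other 4 of the 8 had mean differences of 4.91 for C234R078 to 5.22 for C135R052. In the repeat with fish 1 and 6 none of the 8 was called, with adjusted p from 0.118 to 0.198 in limma, although the differences were still 3.18 to 4.49. Fish 1 was 6.59 to 8.90 above the Chehalis mean in these probes.

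The 8 probes with the largest negative differences, C026R038, C096R113, C247R109, C233R088, C215R152, C031R027, C091R122 and C099R058, behaved otherwise: fish 6 lay with its group. C026R038 ran from -3.24 to -0.93 in the Chilliwack fish with a median of -2.63, and fish 6 was at -2.78. In the Chehalis fish it ran from -0.58 to 1.39 with a median of 0.64. No Chilliwack fish reached the Chehalis range, and fish 1 came nearest to it. The difference was -2.85 ± 0.334 (SE; limma, adjusted p = 2.33e-05). That of fish 6 alone from the Chehalis mean ran over these 8 probes from -3.33 for C026R038 to -1.89 for C091R122. The ranking used means that include fish 6, so its place in these probes follows in part from that choice. Among the 1162 probes with 15 values called lower by at least 1, fish 6 lay below the Chehalis range in 52.5%. Among the 655 called higher by at least 2, it lay above that range in 30.2%.

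C091R122 was the probe with the smallest adjusted p among the lower ones. Its log ratios were -1.72 to -0.29 in the Chilliwack fish with a median of -1.36, and 1.23 to 1.97 in the Chehalis fish with a median of 1.58. The groups lay well apart. The difference was -2.69 ± 0.238 (SE; limma, adjusted p = 1.31e-06). It was -2.03 in the repeat (limma, adjusted p = 0.00765), -1.89 for fish 6 alone and -2.17 for fish 1 alone. Of the 8 lower probes, 7 separated the groups completely. C099R058 was the exception, where the lowest Chehalis fish at -0.36 met the highest Chilliwack fish at -0.36.

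In the other 5 of these probes the group medians in the Chilliwack fish lay between -2.63 for C233R088 and -1.52 for C031R027, against Chehalis medians of 0.42 to 1.15. Their mean differences ran from -2.84 for C096R113 to -2.70 for C031R027. In the repeat only C091R122 among the 8 was called. The other 7 had differences there of -2.57 for C099R058 to -2.15 for C096R113, with adjusted p from 0.0633 to 0.114 in limma.

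**Figure D4:**
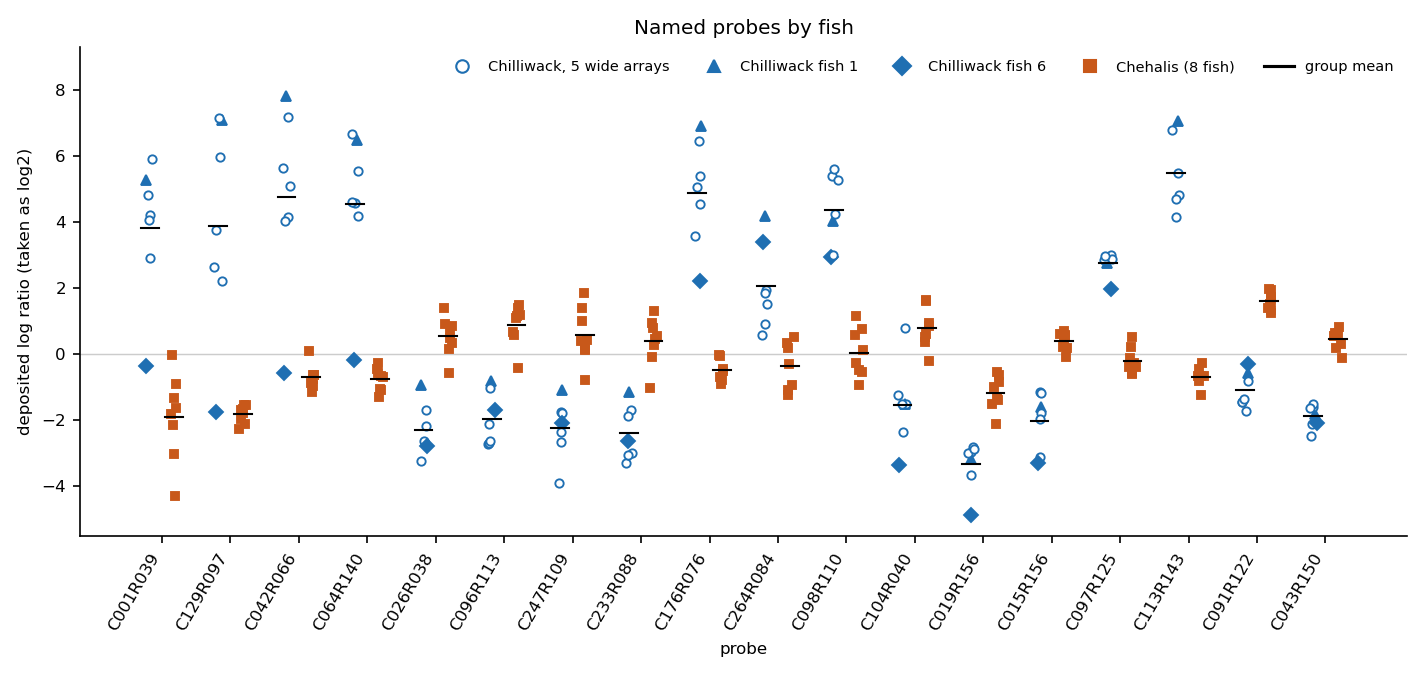
Deposited log ratio (y axis, taken as log2) of 18 named probes in each Chilliwack fish (blue) and Chehalis fish (orange squares), with a black line at each group mean. In the first 4 probes fish 6 (diamond) lies at or near the Chehalis fish, whereas in C026R038, C096R113, C247R109 and C233R088 it lies with its group.

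The probes called in both the main comparison and the repeat, with the largest differences in the repeat, were C176R076, C264R084, C098R110, C027R053 and C257R032 on the higher side. C098R110 ran from 2.96 to 5.59 in the Chilliwack fish with a median of 4.26, and fish 6 was the lowest. The Chehalis fish ran from -0.94 to 1.14 with a median of -0.06. The groups did not overlap, and the difference was 4.31 ± 0.428 (SE; limma, adjusted p = 4.67e-06). In the repeat it was 3.44 (adjusted p = 0.0145).

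C027R053 and C257R032 had the same highest and lowest Chilliwack fish, fish 4 and fish 6. C027R053 was 2.89 to 5.64 in the Chilliwack fish and -0.80 to 1.26 in the Chehalis fish. C257R032 was 2.50 to 5.62 and -0.52 to 1.22. C176R076 was 2.21 in fish 6 and 6.91 in fish 1, while the 7 Chehalis fish with a value stayed between -0.90 and -0.02. C264R084 differed from these in that fish 1 at 4.18 and fish 6 at 3.41 were its highest Chilliwack values and the wide arrays reached only 0.58 to 1.94. Its difference was accordingly larger in the repeat, at 4.16 against 2.42. Fish 36, which was left out, lay inside the Chehalis range in C098R110 at 0.33, C027R053 at 0.79 and C257R032 at 0.52. It lay above that range in C264R084 at 1.57 and, barely, in C176R076 at 0.01.

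On the lower side these probes were C104R040, C019R156, C015R156, C228R104 and C057R153, and fish 6 had the lowest log ratio of all 15 fish in 4 of them. The probes were ranked by the repeat, which compared fish 1 and fish 6 with Chehalis. Low values in fish 6 thus follow in part from that choice. C019R156 was -4.87 in fish 6 and -3.66 to -2.82 in the other Chilliwack fish, with a group median of -2.98. The Chehalis fish ran from -2.12 to -0.55 with a median of -1.14. The groups did not overlap, and the difference was -2.17 ± 0.313 (SE; limma, adjusted p = 9.36e-05). C015R156 was -3.30 to -1.13 against -0.08 to 0.70, again without overlap. In C057R153 fish 7 at -2.66 lay below fish 6 at -2.47, and the groups were -2.66 to -0.81 and 0.29 to 1.43. Fish 8 overlapped the Chehalis fish in C104R040, at 0.79, and in C228R104, at 0.37. Fish 36 lay below every Chehalis fish in each probe of this lower side, from -2.60 in C015R156 to -1.27 in C104R040.

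The smallest adjusted p on the higher side belonged to C113R143 and C097R125. C097R125 was even across the Chilliwack group: 6 fish lay between 2.77 and 3.00, and fish 6 was at 1.98. The Chehalis fish ran from -0.60 to 0.51 with a median of -0.32. All 7 Chilliwack fish were thus well above every Chehalis fish, but the probe was named from these same fish. Fish 36, which was left out, was at 0.86. The wild Chilliwack smolts ran from -0.14, inside the Chehalis range, to 2.46. The difference between the hatchery groups was 2.97 ± 0.224 (SE; limma, adjusted p = 3.24e-07). It was 2.57 in the repeat (adjusted p = 0.00765) and 2.18 for fish 6 alone (adjusted p = 0.0349). C113R143 had no value in fish 6. In the other 6 Chilliwack fish it ran from 4.14 to 7.07, against -1.22 to -0.27 in 7 Chehalis fish, a difference of 6.18 ± 0.415 (SE; limma, adjusted p = 3.24e-07). C043R150, named with C091R122 for its small adjusted p on the lower side, was -2.47 to -1.49 against -0.12 to 0.84, and fish 6 at -2.07 lay inside its group. Fish 36 was at 0.25 in C043R150, inside the Chehalis range, and at -0.66 in C091R122, below it.

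Both groups could be set side by side within 1 slide only. It held fish 6 and Chehalis fish 1620, and on it fish 6 exceeded fish 1620 by 2.25 in C097R125, 2.37 in C098R110 and 3.22 in C264R084. Fish 6 was lower by 2.71 in C043R150, 1.70 in C091R122 and 3.87 in C015R156. For the largest positive differences the same slide gave 0.98 in C001R039, 0.38 in C129R097 and 0.05 in C042R066. This is 1 fish against 1 fish and has no test. The probes were also named from comparisons that include both of these fish. With slide as a fixed block over all river smolts, 5 probes were called. Every Chilliwack hatchery fish but fish 6 was the only river smolt on its slide. That fit therefore rests on fish 6 and cannot stand for the comparison of the whole group.

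Empty values were a second readout, which the log ratio test leaves out. The Chilliwack arrays held a value for 14495 to 28380 probes and the Chehalis arrays for 17859 to 31584, a mean difference of -4620.5 probes for Chilliwack minus Chehalis (exact permutation test, adjusted p = 0.0639). Of 24810 probes with a value on some but not all arrays, 0 were called by Fisher's exact test per probe after adjustment, or 0% of them. At an unadjusted p below 0.05 there were 3506, with more Chilliwack fish holding a value in 209. C084R119 had a value in all 7 Chilliwack fish, from 0.89 in fish 6 to 6.42 in fish 8, and in none of the 8 Chehalis fish. C187R159 and C172R090 had one in 6 Chilliwack fish, all but fish 6, and in none of the Chehalis fish. In the other direction C060R145, C190R073 and C015R062 had a value in 8 Chehalis and 0 Chilliwack fish. Each of these 6 had an adjusted p of 0.15 in Fisher's exact test. The rule by which a cell was left empty is not given in the sources used here.

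Wild smolts of the same capture area, stock labels and years gave a second comparison with no fish in common. There, 7 wild fish of 2008 from chilliwack with the stock label Chilliwack_R were set against 4 wild fish of 2009 from the capture area salmon, here called Salmon River fish, with the stock label Fraser. Of 23174 probes, 3217 or 13.9% were called in limma, 1752 higher (7.56%) and 1465 lower (6.32%). The wild Chilliwack group held 2 wide arrays, those of fish 93 and 100. Without them 4191 of 23179 probes, or 18.1%, were called.

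Of the 6517 probes called in hatchery fish, 6486 were tested in wild fish, and 5443 of these had the same sign there, or 83.9%. Over all 16210 probes tested in both, 71.4% had the same sign and r was 0.562 across probes, which are not independent. Over all probes tested in each comparison, the median size of the difference was 0.61 in the hatchery fish and 0.46 in the wild fish. Called in both were 1265 probes, of which 1238 had the same sign. The 1238 were 19.1% of the hatchery calls tested and 49.7% of the 2492 wild calls tested in hatchery fish. Over all probes tested in each comparison, 13.9% were called in wild fish and 40.1% in hatchery fish, in either direction. With the wild wide arrays left out, the share with the same sign was 72.3%, against 63.3% over all probes, and r was 0.344. Of the 80 probes called in the repeat, 36 had the same sign in wild fish, or 45%, against 64.2% over the 20001 probes tested in both. Without the 2 wild wide arrays 31 of the 80 did, or 38.8%, against 61.5%. The share lay above that of all probes for the calls of the main comparison and below it for those of the repeat, and neither was tested.

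**Figure D5:**
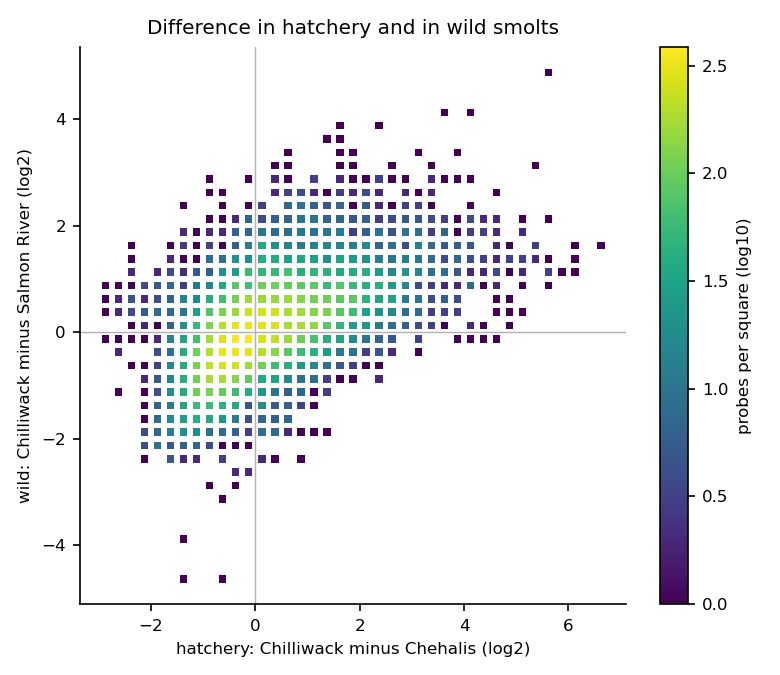
Difference of log ratios per probe in hatchery smolts (x axis, Chilliwack minus Chehalis) and in wild smolts (y axis, Chilliwack minus Salmon River), for 16210 probes, coloured by the number of probes in each square on a log10 scale. The cloud runs from lower left to upper right, with r = 0.562 across probes, and the far right holds hatchery differences above 4 whose wild differences are mostly between 0 and 2.

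C001R039 was among the largest in both comparisons. In the wild Chilliwack fish it ran from 0.82 to 4.66 with a median of 2.41, and in the 4 Salmon River fish from -2.59 to -1.44. All wild Chilliwack fish lay above all Salmon River fish, and the difference was 4.76 ± 0.543 (SE; limma, adjusted p = 0.000412), or 4.18 without the 2 wide arrays (adjusted p = 6.84e-05). Among the hatchery and wild fish compared, fish 6 was the one Chilliwack smolt inside the Chehalis range. C119R027 likewise differed by 4.18 in wild fish and by 4.13 in hatchery fish (limma, adjusted p = 0.000929 and 0.00017). It ran from 1.28, in fish 6, to 5.36 in the hatchery Chilliwack fish and from 1.35 to 4.82 in the wild ones. The 5 Chehalis fish with a value were between -1.84 and -0.89, so no Chilliwack smolt overlapped them.

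C010R109 and C042R155 had the largest negative differences in wild fish, -4.73 and -4.62 (limma, adjusted p = 0.000264 and 0.000412). In hatchery fish C010R109 differed by -1.30 ± 0.488 (SE; limma, adjusted p = 0.0404), with ranges of -3.68 to -0.66 and -2.51 to 0.28 that overlapped. C042R155 differed by -0.58 with an adjusted p of 0.228. In wild fish the higher probes named from the repeat differed by 1.67 (C176R076), 1.09 (C264R084), 0.34 (C257R032), 0.04 (C098R110) and -0.04 (C027R053). The lower ones differed by -0.03 (C019R156), 0.59 (C228R104), 0.79 (C015R156), 0.93 (C057R153) and 1.26 (C104R040). Of these, only C264R084 (same sign) and C104R040 (opposite sign) were called in wild fish (limma, adjusted p = 0.0211 and 0.031).

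A test of the difference between the comparisons, hatchery minus wild, in which the origin and the river of the 2009 fish change together, called 678 of 16210 probes, or 4.18% (limma). The hatchery difference was the more positive in 311 (1.92%) and the more negative in 367 (2.26%). C122R054 had the largest positive value of 5.03 ± 0.982 (SE; limma, adjusted p = 0.00704): it was 4.07 to 7.57 in 6 Chilliwack hatchery fish, -1.65 to -0.27 in the Chehalis fish, and differed by 1.16 in wild fish. C037R096 differed by 4.71 in hatchery and -0.18 in wild fish. Fish 6 had no value for either of these probes. C136R119 was lower by 2.43 in hatchery fish, at -2.05 to -0.69 against 0.09 to 2.28. In wild fish its difference was 1.62, and hatchery minus wild came to -4.06 (limma, adjusted p = 0.0016). C226R135, at -3.71 for the same contrast, differed by 2.91 in wild fish and by -0.80 in hatchery fish, where it was not called.

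The stock labels could also be compared at sea in a single year. Among fish of the ocean fall of 2008, 6 of the stock label Chilliwack_R (4 hatchery and 2 wild) were set against 7 of the label Fraser (2 hatchery and 5 wild), with origin as a covariate. Of 23692 probes, 0 or 0% were called in limma, and 3739 had an unadjusted p below 0.05. The 4 named by the smallest unadjusted p, none of which passed, were C139R019, C248R107, C009R046 and C118R157, with differences of 1.63, 1.00, -1.32 and -1.67. In the hatchery smolts only C139R019 among them was called, at 1.22 ± 0.385 (SE; limma, adjusted p = 0.0183). In the wild smolts none of the 4 was called, and C139R019 was at -0.43 (limma, adjusted p = 0.309). Without the wild wide arrays C118R157 was called there, at 1.15 (limma, adjusted p = 0.0352), opposite in sign to the fall fish. Of the 6432 smolt calls tested in the fall fish, 55.4% had the same sign, against 54.1% over all probes.

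The contrast of both differences, smolts minus fall fish, called 3872 of 16150 probes, or 24%, with 1960 more positive (12.1%) and 1912 more negative (11.8%) in smolts. The smolt groups differ in year and the fall groups do not, so year and stage cannot be told apart here. The fall groups also differ in their mix of origins and in capture area, and this contrast has a term for neither. C001R039 had the largest value, 7.36 ± 1.13 (SE; limma, adjusted p = 0.000115). In the fall fish, where this contrast has no origin term, its mean was -0.95 in the Chilliwack_R and 0.68 in the Fraser fish. C112R043 followed at 7.22, with 4.65 to 7.59 in 6 Chilliwack smolts and -1.29 to -0.28 in the 6 Chehalis smolts with a value. Fish 6 had no value for this probe. On the negative side were C055R110 at -3.27 and C057R153 at -3.15. Without the wide arrays the same contrast called 138 of 20104 probes, or 0.686%.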

How the data were processed

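Gill RNA of each fish was hybridised with a pool of gill RNA on 2-colour arrays. Per the labels' protocols, fish RNA carried Alexa 555 and the pool Alexa 647. The authors deposited 1 log ratio per spot, and a series table of the same arrays that lacks 17574 values of fish 6. Both were taken as log2 from the range of the deposited values, -11.30 to 9.83, and the direction of the ratio is not given. Fish over pool is likely: among 738 of the most variable probes, the log2 of the mean ratio over 82 fish was 0.10 as given and 1.68 with the sign turned, and a pool of all fish should give 0. Background correction, normalization and the rule for empty cells go unnamed in the labels and headers. The number of arrays limits the precision.

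Each comparison was fitted per probe over the whole table with limma 3.58.1 in R 4.3.3 (lmFit, eBayes), adjusted by Benjamini-Hochberg with calls made below 0.05. To be tested, a probe needed a value in at least 50% of the fish, and in at least 2, in each group. No value was filled in, and 60 control spots were left out. The fall contrast with smolts was fitted without origin. Exact permutation tests were two-sided and enumerated all splits in Python 3.11.15. The fits were run on simulated data in which noise was drawn separately for each probe. They had to return the sign and size of differences put in, and the number of false calls was no criterion. Spread shared by the probes of an array was not simulated.

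Probes were named by rule. From the main comparison these were the 8 largest differences in each direction among probes with all 15 values, the 5 largest called in both the main comparison and the repeat, and the 2 smallest adjusted p. For empty values the 3 smallest p were taken, and elsewhere the 2 largest called differences, or the smallest p where none was called. The members, the limit of 1.3 and the rules were chosen with earlier results of these data known. The labels record separate fish, each on 1 array. The p-values therefore measure the spread between fish together with that between arrays. In the repeat most of that spread is that of the Chehalis fish, which varied less. For the smolts, each group came from 1 capture area in 1 year. Alternatives covered scaling, filters, variance models, covariates, slide and left-out fish. No gene is paired with a probe, so the gene lists set out for naming were not used.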

Additional observations from a re-analysis of the deposited data

Results flagged for a closer look

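Among 74 sets of values of 1 group examined for a fish far from the others, 4 held one, about as many as chance gives at 1 in 20. Fish 6 stood apart from the other Chilliwack fish at -0.19 in C064R140, at 1.98 in C097R125 and at -4.87 in C019R156. Chehalis fish 1617 stood apart at 0.10 in C042R066.

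Chilliwack minus Chehalis in hatchery fish differed from Chilliwack minus Salmon River in wild fish in 678 of 16210 probes, or 4.18%. Origin and the second river cannot be told apart there. The largest values were 5.03 in C122R054, 4.89 in C037R096, -4.06 in C136R119 and -3.71 in C226R135. The hatchery difference also differed from that between fall stocks in 3872 of 16150 probes, or 24%. Without the wide arrays it did so in 138 of 20104. Year changed with the group in the smolts only, so year and stage cannot be told apart. Origin mix and capture area of the fall groups also enter this contrast. The largest values were 7.36 in C001R039, 7.22 in C112R043, -3.27 in C055R110 and -3.15 in C057R153.

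The control spots GE_BrightCorner and DarkCorner, which no comparison of probes used, had higher log ratios in the Chilliwack fish. The differences were 2.80 and 1.38 (exact permutation test, adjusted p = 0.00124 for each). Another control spot, E1A_r60_3, looked up by no stated rule, lay above the Chehalis range in fish 5 only, at 1.57. It had no value in fish 4 and fish 7. The part of control spots in the probe results was not tested.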

How the results depend on the processing

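The number of calls between the hatchery groups was 6517. It stayed within 1.5 times of that under median centring, quantile normalization, scaling by array SD, local medians, the series table, both filters on empty values, both variance priors, array weights, slide as a random block, wider sets of fish, fish 36 added and the Chehalis females left out. It was 3504 with array position, 1667 with fork length and 1119 with condition factor as a covariate, and 80 without the wide arrays. All of these covariates moved with the group, array position in part. Slide as a fixed block, a fit that rests on fish 6 among the Chilliwack hatchery fish, gave 5. Of the 6517 calls 54.8% were higher, against 69.5% with array position and 77.9% with condition factor. Leaving out 1 fish gave 5630 to 8068. The 80 calls of the repeat became 33 after quantile normalization, 37 after scaling by array SD and 0 with array weights (1444 at an unadjusted p below 0.05), and 46 to 3021 without 1 fish, the latter without fish 6. Fish 6 with fish 36, chosen after seeing the data, gave 136. Array weights gave 5269 calls in wild fish, 4070 for hatchery minus wild and 6198 for smolts minus fall fish. In fits without weights, smolts minus fall fish gave 3872 calls with all arrays and 138 without the wide arrays. Leaving out 1 Salmon River fish gave 1510 to 2176 calls in wild fish, against 3217 with all 4, and 256 to 456 for hatchery minus wild, against 678. No call was made on empty values or between fall stocks under any alternative run. For empty values without the wide arrays, the smallest p of Fisher's exact test was 0.0222, so no call was possible there.

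With fish 36 the differences in body build were 0.42 cm, 0.80 g and -0.12 in condition factor (exact permutation tests, adjusted p = 0.878, 0.878 and 0.269). Without the wide arrays, an alternative chosen after seeing the data, the mass difference was 3.40 g (adjusted p = 0.0889), the difference in array SD 0.24 (adjusted p = 0.133), and the difference in probes with a value reversed to 1960. Among 1190 values of named probes under alternatives of their own comparison, none reversed and 74 lost their call. Of these, 28 were with the slide block, which rests on fish 6, and 18 without the wide arrays. The cause of these losses was not tested. Probes that were not called, as between fall stocks and on empty values, could not lose a call. The fits of fish 1 alone and fish 6 alone are not among the 1190 values. For fish 6 alone C234R078 was -0.40, against 4.91 in the main comparison. No paired analysis was possible because the fish numbers of the groups are all different.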
